A study of Mus musculus with 9 samples.

Results

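The E2F family consists of the transcription factors that switch on, and later switch off, the genes of DNA replication and mitosis. Its 10 members taken here are the activators E2f1, E2f2 and E2f3, the pocket-protein partners E2f4 and E2f5, the repressors E2f6, E2f7 and E2f8, and the dimerization partners Tfdp1 and Tfdp2. They were chosen by name, as rows of a table of 24062 mouse genes, and all 10 passed the filter on low counts that kept 15369 genes. RNA was sequenced from mouse embryonic fibroblasts of the C57BL/6 strain, which are cells grown out of embryos. Every culture had been gamma-irradiated to make it senescent, which means alive but withdrawn from division, and on day 10 was infected with lentivirus encoding a short hairpin RNA. The groups were shRela-1 and shRela-2, whose separate hairpins target Rela (it encodes p65, a subunit of NF-kB), and shScr, a scrambled hairpin, each with 3 samples. No unirradiated or untransduced cells were analysed here, so all values are from irradiated cells with a virus, and the question put to them is how transcripts respond to loss of p65 in senescence.

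An E2F protein binds promoters as a dimer with a DP protein, the product of Tfdp1 or Tfdp2. In resting and senescent cells the pocket proteins RB, p107 and p130 hold the E2F dimers of the activator and pocket-protein classes and keep their target genes low, and phosphorylation of the pocket proteins by cyclin-dependent kinases releases them. E2F6 lacks the pocket-protein binding region and represses as part of a Polycomb complex, while the atypical members E2F7 and E2F8 bind DNA without a DP partner and repress the same kind of S-phase gene that the activators switch on.

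Many E2F genes are themselves known E2F targets, so the promoters of the 5 members that differed between the hairpins are printed for the letters of the site. The sequences are those of RefSeq on build GRCm38.p6, from 250 bases before to 50 bases after the start site, read along the strand of the gene, and 8 of the 10 members have 1 or more such windows there (12 windows in all). Where a gene has several, the most upstream window is shown. Capitals mark the 8-base E2F words TTTCCCGC, TTTCGCGC, TTTGCCGC and TTTGGCGC and the 6-base word TTTGAA of the cell cycle homology region (CHR), the element of G2/M genes that the MuvB complex binds, each in either orientation. The windows lie at chr13:29986014-29986313 on the minus strand (E2f3), chr12:16810715-16811014 on the plus strand (E2f6), chr10:110745189-110745488 on the plus strand (E2f7), chr7:48881547-48881846 on the minus strand (E2f8) and chr8:13338501-13338800 on the plus strand (Tfdp1).
E2f3: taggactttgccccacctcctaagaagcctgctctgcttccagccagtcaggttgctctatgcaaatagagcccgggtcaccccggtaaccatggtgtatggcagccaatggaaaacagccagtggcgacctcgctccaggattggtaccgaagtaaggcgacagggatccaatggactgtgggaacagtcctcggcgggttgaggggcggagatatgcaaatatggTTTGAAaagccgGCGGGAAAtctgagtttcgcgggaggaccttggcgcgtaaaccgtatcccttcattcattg
E2f6: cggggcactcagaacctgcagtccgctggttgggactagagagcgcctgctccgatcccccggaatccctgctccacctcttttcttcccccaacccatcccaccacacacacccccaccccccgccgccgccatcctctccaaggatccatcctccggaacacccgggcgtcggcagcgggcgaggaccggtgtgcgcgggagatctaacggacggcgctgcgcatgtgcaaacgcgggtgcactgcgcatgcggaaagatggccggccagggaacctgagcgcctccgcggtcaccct
E2f7: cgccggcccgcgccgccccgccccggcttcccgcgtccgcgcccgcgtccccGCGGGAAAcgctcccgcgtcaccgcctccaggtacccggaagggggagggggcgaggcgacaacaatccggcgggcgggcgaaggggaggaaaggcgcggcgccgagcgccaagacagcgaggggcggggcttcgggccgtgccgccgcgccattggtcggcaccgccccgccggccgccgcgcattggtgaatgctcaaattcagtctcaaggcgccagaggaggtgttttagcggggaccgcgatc
E2f8: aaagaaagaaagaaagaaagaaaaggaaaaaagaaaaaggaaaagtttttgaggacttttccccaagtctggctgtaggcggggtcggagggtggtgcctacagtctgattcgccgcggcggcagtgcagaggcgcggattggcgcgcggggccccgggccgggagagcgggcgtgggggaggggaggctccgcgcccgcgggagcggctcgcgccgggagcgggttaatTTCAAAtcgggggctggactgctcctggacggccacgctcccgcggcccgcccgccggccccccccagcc
Tfdp1: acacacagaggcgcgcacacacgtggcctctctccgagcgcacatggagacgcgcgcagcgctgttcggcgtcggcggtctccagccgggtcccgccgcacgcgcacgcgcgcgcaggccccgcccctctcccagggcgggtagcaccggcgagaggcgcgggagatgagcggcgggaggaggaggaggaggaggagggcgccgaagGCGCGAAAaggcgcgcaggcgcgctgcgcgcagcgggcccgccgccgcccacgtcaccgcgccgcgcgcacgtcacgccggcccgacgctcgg

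An E2F word stood in 5 of the 12 windows, 1 each of E2f2, E2f3 and E2f7 and 2 overlapping ones of Tfdp1 that share the word, and in 2.26% of 32851 RefSeq windows of the same length. In the sequences above it is GCGGGAAA in E2f3 and E2f7, 11 and 198 bases before the start site, and GCGCGAAA in Tfdp1, 43 bases before it, counted to the first base of the word. The CHR word stood in 3 of the 12 windows, of E2f2, E2f3 and E2f8, and in 17.9% of all windows; in E2f8 it lies 20 bases and in E2f3 23 bases before the start site, and no E2F word overlaps either. The word CCAAT, in either orientation, was present in 5 of the 12 windows, of E2f2, E2f3, E2f7 and E2f8, and in 37.4% of all windows. A match to the NF-kB consensus was present in 1 of the 12 windows, that of E2f8, as GGGAGGCTCC 68 bases before the start site, and in 8.46% of all windows. The E2f6 window held none of these words, which says only that these letters are not in it. The E2f1 window, also without an E2F word, lies at chr2:154569377-154569676, inside the GENCODE gene given below. Both Tfdp2 windows lie inside their GENCODE gene too. For these members the bases before the GENCODE start were not searched. In the E2f2 window that holds the E2F word, the bases after the start site were not found in a GENCODE transcript.

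Total counts ran from 49774667 to 67963506 per library. Rela, in CPM (counts scaled to a common library total), averaged 13.6 ± 0.487 in shRela-1, 13.9 ± 0.768 in shRela-2 and 85.2 ± 1.84 in shScr (SD, n = 3 each), so the target was low in every library labelled as a knockdown. All 10 fibroblast markers checked passed the filter, and together they made up 59973 to 63111 CPM in shRela-1, 52313 to 55263 CPM in shRela-2 and 53324 to 58901 CPM in shScr. Among 11 macrophage and blood cell markers, 10 were in the table and none of them was at 0. Ptprc averaged 6.12 CPM in shRela-1, 6.11 CPM in shRela-2 and 6.20 CPM in shScr. Others were higher, up to Lyz2 at 345 CPM in shRela-1, 324 CPM in shRela-2 and 366 CPM in shScr, and Itgam fell with shRela-2, as given below. Within each group no library repeated another: counts of replicates gave a chi-square of 11.3 to 106 per degree of freedom. In bulk RNA, fewer cells that express a gene and less RNA of that gene per cell cannot be told apart.

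In a fit that left the replicate numbers out, the activators E2f1 and E2f2 were not called different between any groups, and E2f3 differed slightly between the hairpins. E2f1, whose product activates S-phase genes and, when in excess, apoptotic genes, lies on chromosome 2 (154559407 to 154569892, minus strand; mm10 with the GENCODE M21 annotation, as for all members). It had 51.2, 43.6 and 46.4 CPM with shRela-1, 44.9, 44.6 and 40.8 CPM with shRela-2, and 50.1, 42.4 and 45.8 CPM with shScr. The 3 ranges overlapped. Its log2 fold change was 0.03 (95% interval -0.13 to 0.19) with shRela-1 against shScr and -0.08 (-0.25 to 0.08) with shRela-2 against shScr, with adjusted p = 0.813 and 0.431 in the quasi-likelihood test of edgeR, adjusted by Benjamini and Hochberg's method over all genes tested. Between the hairpins the difference was 0.12 (-0.05 to 0.28; adjusted p = 0.244), and with the replicate number as a block it was 0.11 (adjusted p = 0.0484).

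E2f2, an activator close to E2f1 and E2f3, is on chromosome 4 (136172394 to 136196057, plus strand) and was the scarcest member. Its libraries held 41, 48 and 51 counts in shRela-1, 42, 49 and 23 counts in shRela-2, and 39, 33 and 38 counts in shScr. These are 0.660 to 0.831 CPM with shRela-1, 0.409 to 0.811 CPM with shRela-2 and 0.489 to 0.778 CPM with shScr, and the groups overlapped throughout. Its 95% intervals were wide, from -0.38 to 0.92 for shRela-1 against shScr, from -0.55 to 0.77 for shRela-2 against shScr and from -0.49 to 0.80 for shRela-1 against shRela-2 on the log2 scale. A rise or a fall of a size within these intervals is not excluded by these counts.

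E2f3, an activator known for its part in the proliferation of mouse fibroblasts, lies on chromosome 13 (29906575 to 29986063, minus strand). It stood at 46.1, 43.7 and 47.3 CPM with shRela-1, 38.9, 40.3 and 43.5 CPM with shRela-2, and 44.3, 42.3 and 40.2 CPM with shScr. All 3 shRela-1 samples were above all 3 shRela-2 samples by a narrow margin, and the shScr samples lay across both. E2f3 was 1.12-fold higher in shRela-1 than in shRela-2 (log2 0.16 ± 0.054, SE; adjusted p = 0.0374). That call did not hold without shRela-1 replicate 1 (adjusted p = 0.0771), shRela-1 replicate 3 (0.110), shRela-2 replicate 1 (0.124) or shRela-2 replicate 2 (0.102), nor when libraries were scaled by their totals alone (0.12, adjusted p = 0.0998). Against shScr the values were 0.11 ± 0.054 with shRela-1 (adjusted p = 0.165) and -0.05 ± 0.054 with shRela-2 (adjusted p = 0.568).

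**Figure D1:**
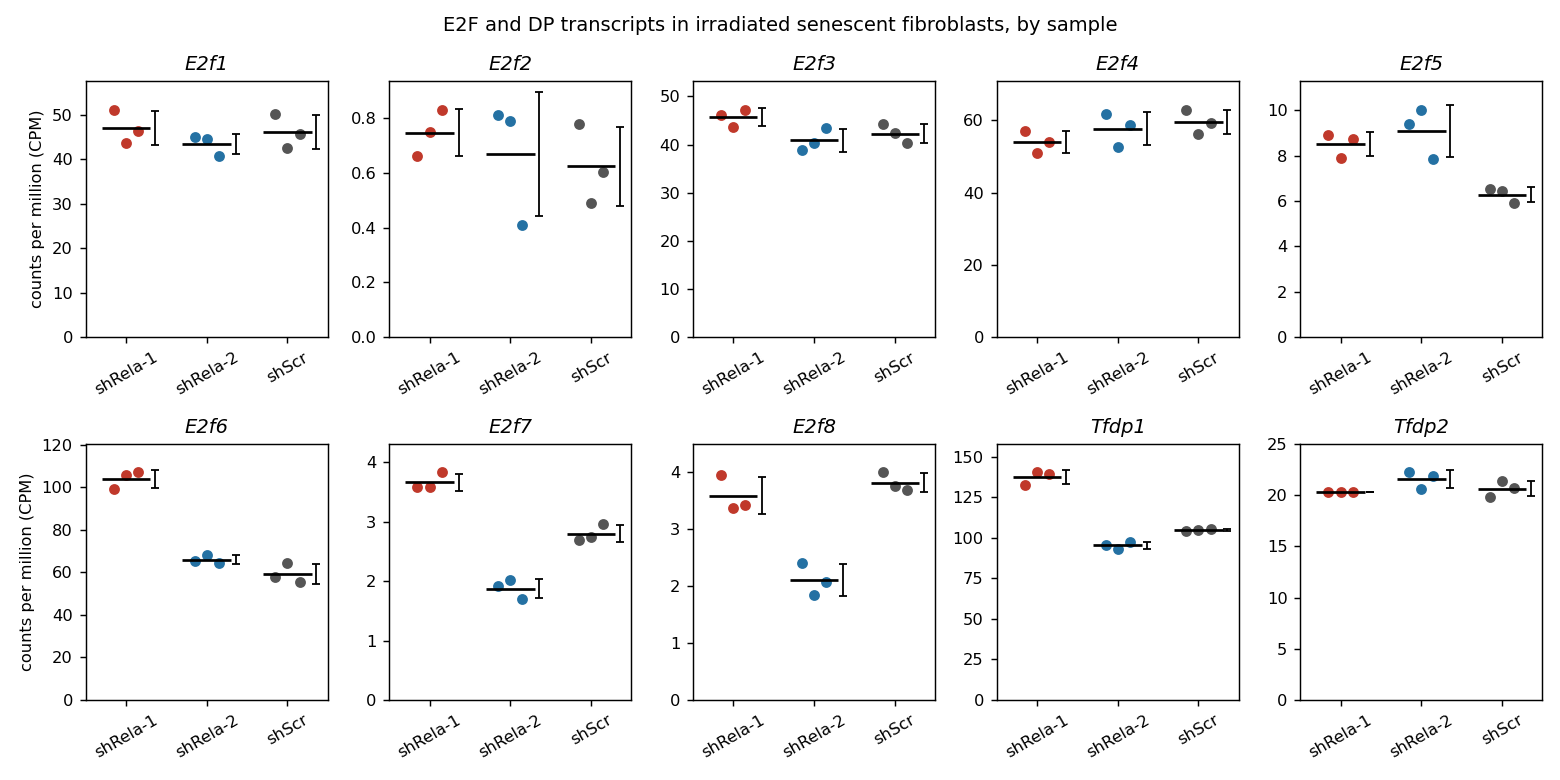
Level in CPM of each member in every sample, 1 panel per gene, with each point a sample, the line the mean of 3 and the bar beside it ± 1 SD; the vertical axes start at 0 and differ between panels. In the E2f6 and Tfdp1 panels the 3 shRela-1 points lie above all others, and in the E2f7 and E2f8 panels the 3 shRela-2 points lie below all others.

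Of the pocket-protein partners, E2f5 rose with both hairpins and E2f4 was not called in any comparison without the replicate number as a block. E2F5, with E2F4, brings the pocket proteins p107 and p130 to promoters in cells that are not dividing. E2f5 (chromosome 3, 14578641 to 14606309, plus strand) had 8.89, 7.89 and 8.72 CPM with shRela-1, 9.38, 10.0 and 7.83 CPM with shRela-2, and 6.52, 6.42 and 5.90 CPM with shScr. All 6 samples with a Rela hairpin were above all 3 shScr samples. The rise was 0.44 ± 0.10 log2 with shRela-1 (1.35-fold; adjusted p = 0.0115) and 0.53 ± 0.10 log2 with shRela-2 (1.45-fold; adjusted p = 0.00305), both against the same shScr samples. The hairpins themselves were not called different (-0.10, 95% interval -0.32 to 0.13; adjusted p = 0.503). Without shScr replicate 3 the adjusted p for shRela-1 was 0.0504.

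E2f5 exons overlap those of 1810022K09Rik on the opposite strand, and the library kit does not mark strand. That neighbour held 1012 to 1536 counts per library and was not called, with log2 fold changes of -0.02 for shRela-1 against shScr (adjusted p = 0.885) and -0.09 for shRela-2 against shScr (adjusted p = 0.366).

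E2f4, the most abundant partner of the pocket proteins in most tissues, lies on chromosome 8 (105297663 to 105305370, plus strand). It had 57.2, 51.0 and 53.9 CPM with shRela-1, 61.7, 52.7 and 58.9 CPM with shRela-2, and 63.0, 56.3 and 59.2 CPM with shScr. Replicate 2 was the lowest sample of each group, and the ranges overlapped. The fold changes were -0.14 ± 0.065 log2 with shRela-1 (adjusted p = 0.154) and -0.04 ± 0.065 log2 with shRela-2 (adjusted p = 0.669). With the replicate number as a block, E2f4 fell with shRela-1 (-0.14, adjusted p = 0.00363) and was lower in shRela-1 than in shRela-2 (-0.094, adjusted p = 0.0333).

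With shRela-1, E2f6 showed the largest change of any member against shScr. With shRela-2 it was not called in the main fit, which left the replicate numbers out. E2F6 is the repressor of the Polycomb complex PRC1.6, known in mouse for keeping germline genes silent in somatic cells, and its gene is on chromosome 12 (16810963 to 16839742, plus strand). E2f6 had 99.0, 106 and 107 CPM with shRela-1, 65.4, 68.2 and 64.3 CPM with shRela-2, and 58.0, 64.4 and 55.3 CPM with shScr. The 3 shRela-1 samples stood well above the other 6, and the lowest shRela-2 sample fell just inside the shScr range. With shRela-1 the transcript rose 1.75-fold (0.81 ± 0.056 log2; adjusted p = 3.89e-06). With shRela-2 the change was 0.15 ± 0.056 log2 (95% interval 0.03 to 0.28; adjusted p = 0.0599). The hairpins differed by 0.66 ± 0.056 log2 (adjusted p = 6.48e-06).

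The smaller change with shRela-2 lay close to the threshold. It passed without shScr replicate 2 (0.22, adjusted p = 0.00981), with the replicate number as a block (0.16, adjusted p = 0.00379), with library totals as the scaling (0.17, adjusted p = 0.0378) and in DESeq2 (0.16, adjusted p = 0.0446). None of these gave a value near that of shRela-1.

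The atypical repressors E2f7 and E2f8 were the members with the largest differences between the hairpins, and both were lower with shRela-2. E2F7 is also known as a p53 target that represses cell cycle genes after DNA damage. E2f7 (chromosome 10, 110745439 to 110787384, plus strand) held 222, 230 and 235 counts in shRela-1, 99, 125 and 95 counts in shRela-2, and 135, 185 and 186 counts in shScr. In scaled units these were 3.58, 3.59 and 3.83 CPM with shRela-1, 1.91, 2.01 and 1.69 CPM with shRela-2, and 2.69, 2.74 and 2.96 CPM with shScr. The 3 groups did not overlap, with shScr between the hairpins.

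E2f7 rose with shRela-1 (0.39 ± 0.11 log2, 1.31-fold; adjusted p = 0.0285) and fell with shRela-2 to 66.9% of shScr (-0.58 ± 0.12 log2; adjusted p = 0.00362). The rise with shRela-1 missed the threshold when any 1 sample of shRela-1 or shScr was left out, with adjusted p from 0.0514 (without shScr replicate 3) to 0.0885 (without shRela-1 replicate 3). Between the hairpins E2f7 was 1.96-fold higher in shRela-1 (0.97 ± 0.12 log2; adjusted p = 7.48e-05). The gene overlaps 1700020G17Rik on the opposite strand, which had no count in any library.

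E2f8, the closest relative of E2f7, lies on chromosome 7 (48866429 to 48881596, minus strand). Its counts were 245, 215 and 210 in shRela-1, 124, 114 and 116 in shRela-2, and 200, 253 and 231 in shScr. This corresponds to 3.95, 3.35 and 3.42 CPM with shRela-1, 2.39, 1.83 and 2.07 CPM with shRela-2, and 3.99, 3.75 and 3.67 CPM with shScr. All shRela-2 samples were below the other 6, and shRela-1 overlapped shScr.

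E2f8 fell with shRela-2 to 55.1% of shScr (-0.86 ± 0.13 log2; adjusted p = 6.43e-04). With shRela-1 the difference was -0.09 ± 0.12 log2 (95% interval -0.36 to 0.19; adjusted p = 0.665). The transcript was 1.71-fold higher in shRela-1 than in shRela-2 (0.77 ± 0.13 log2; adjusted p = 7.74e-04). An overlapping gene model, Gm2788, is not a row of the table.

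Of the dimerization partners, Tfdp1 moved in opposite directions with the hairpins and Tfdp2 was not called. Tfdp1 encodes DP1, the main partner of E2F1 to E2F6, and lies on chromosome 8 (13338751 to 13378448, plus strand). It had 133, 141 and 139.5 CPM with shRela-1, 95.9, 93.2 and 97.5 CPM with shRela-2, and 104, 105 and 106 CPM with shScr. The 3 groups were fully apart, and the shScr samples varied least. Tfdp1 rose 1.31-fold with shRela-1 (0.39 ± 0.036 log2; adjusted p = 3.35e-05) and fell to 91.0% of shScr with shRela-2 (-0.14 ± 0.037 log2; adjusted p = 0.0168). The small fall was lost without shScr replicate 3 (adjusted p = 0.0552) or shRela-2 replicate 2 (adjusted p = 0.0700). Between the hairpins the difference was 0.53 ± 0.037 log2 (1.44-fold; adjusted p = 1.55e-06).

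Tfdp2, which encodes DP2 (chromosome 9, 96196275 to 96323646, plus strand), averaged 20.3 ± 0.0178 CPM in shRela-1, 21.6 ± 0.844 CPM in shRela-2 and 20.6 ± 0.750 CPM in shScr (SD, n = 3 each). Its fold changes were -0.02 log2 with shRela-1 (95% interval -0.14 to 0.10; adjusted p = 0.818) and 0.06 log2 with shRela-2 (-0.05 to 0.18; adjusted p = 0.415). Every shRela-1 sample was below every shRela-2 sample, but the difference of -0.09 log2 (-0.20 to 0.03) was not called (adjusted p = 0.236).

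**Figure D2:**
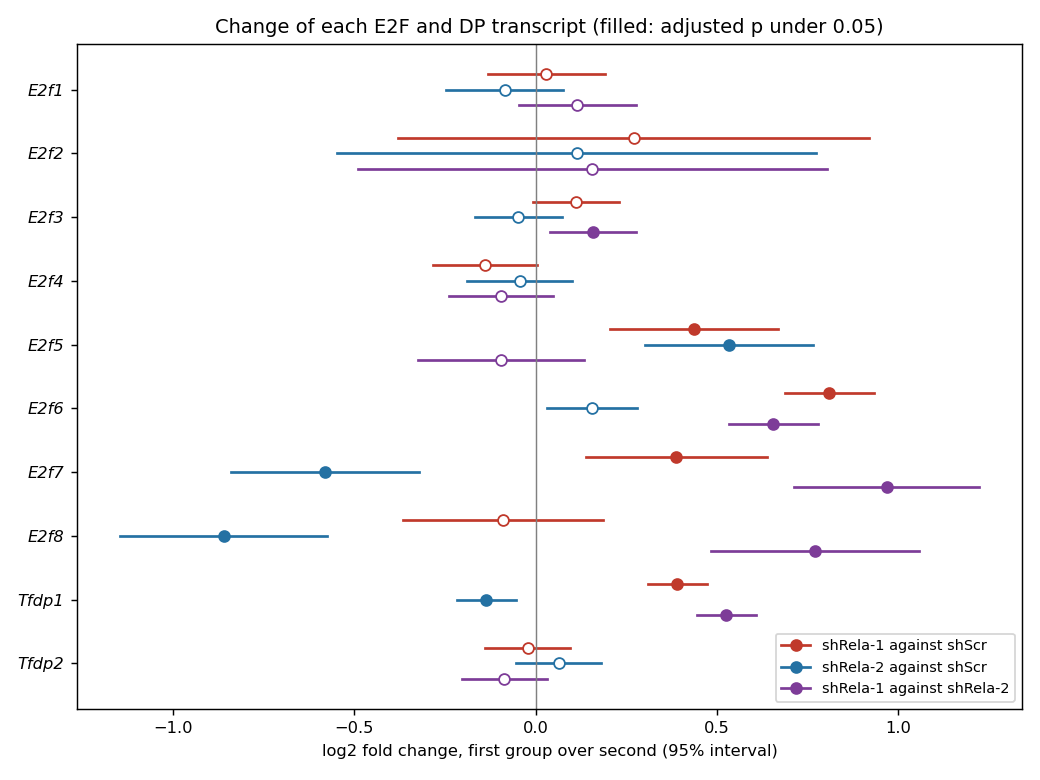
Log2 fold change of each member with its 95% interval, for shRela-1 against shScr, shRela-2 against shScr and shRela-1 against shRela-2; filled points have an adjusted p under 0.05. E2f5 lies to the right of 0 for both hairpins against shScr, while E2f7 and Tfdp1 lie on opposite sides of 0.

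Counted over the family, 4 of 10 members rose and none fell with shRela-1 against shScr in edgeR's test, where 12.3% of all genes tested rose and 12.4% fell; at an unadjusted p under 0.05 the counts were also 4 and 0, and none fell in DESeq2. With shRela-2 against shScr 1 member rose and 3 fell, where 15.4% of all genes rose and 15.4% fell. In the comparison of shRela-1 with shRela-2, 5 members were higher in shRela-1 and none was lower (5 and 0 at an unadjusted p under 0.05, and none lower in DESeq2), where 19.9% of all genes were higher and 20.0% lower. For the mean of both hairpins against shScr, E2f5 (0.49), E2f6 (0.48) and Tfdp1 (0.13) rose and E2f8 (-0.47) fell on the log2 scale, where 10.7% of all genes rose and 12.2% fell. Of these only E2f5 was called in the same direction with both hairpins in this fit. E2f6 was called with shRela-1 alone, E2f8 with shRela-2 alone, and Tfdp1 in opposite directions. With the replicate number as a block, 1 member (E2f4) fell with shRela-1, 2 (E2f5 and E2f6) rose with shRela-2, 2 (E2f4 and E2f8) fell in the mean comparison and 1 (E2f4) was lower in shRela-1 than in shRela-2, while the calls over all genes with shRela-1 against shScr grew to 6034 with the block, against 3799 without it. Over all 15369 genes tested the block gave 2904 that fell with shRela-1 and 3414 that rose with shRela-2. It gave 3023 that fell in the mean comparison and 3968 lower in shRela-1 than in shRela-2. Without the block, 2782 genes tested were higher and 2736 lower with shRela-1 against shScr at an unadjusted p under 0.05. Between the hairpins 3650 were higher and 3693 lower in shRela-1 at that threshold.

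Members whose groups did not overlap in CPM numbered 4 for shRela-1 against shScr, 4 for shRela-2 against shScr and 6 for shRela-1 against shRela-2. Over all genes tested the shares were 39.6%, 44.1% and 50.1% for these comparisons, so the counts of separated members are near the background of the table. Leaving out shScr replicate 3 reduced the members that rose with shRela-1 to 2, and leaving out shScr replicate 2 raised those that rose with shRela-2 to 2. In the mean comparison E2f7 was at -0.10 log2 (adjusted p = 0.552), and the small rise of Tfdp1 there missed the threshold without any 1 of the shScr replicates 1, 2 and 3 (adjusted p = 0.0522, 0.0556 and 0.0507).

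Levels of different members were compared per length of merged coding-transcript exons, and Tfdp1 was first and E2f2 last in every group. In shScr the levels were 39.9 CPM per kilobase for Tfdp1, 29.9 for E2f4, 24.5 for E2f6, 14.6 for E2f1, 7.89 for E2f3, 3.52 for E2f5, 2.60 for Tfdp2, 0.980 for E2f8, 0.354 for E2f7 and 0.132 for E2f2. The order in shRela-2 was the same, and E2f4 and E2f6 in shRela-2 were the only neighbours in the order of any group whose samples overlapped, at 29.0 ± 2.30 and 27.3 ± 0.829 CPM per kilobase. In shRela-1 E2f6, at 43.0 ± 1.79 CPM per kilobase, stood above E2f4, at 27.1 ± 1.56, and the rest of the order was that of shScr.

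The ratio of E2f6 to E2f4 per length was 1.43, 1.71 and 1.64 in shRela-1, 0.874, 1.07 and 0.901 in shRela-2, and 0.758, 0.943 and 0.770 in shScr. E2f6 made up 40.5, 45.0 and 43.7% of the summed levels of the 8 E2F genes in shRela-1, 31.5, 34.1 and 32.3% in shRela-2, and 28.2, 32.8 and 28.8% in shScr. The 3 activators together held 24.7, 22.8 and 23.4% in shRela-1, 25.3, 26.3 and 25.6% in shRela-2, and 28.6, 26.4 and 27.9% in shScr. In shRela-1 the share of E2f6 was well above that of the 3 activators, and in shScr the shares were close to each other. The level of Tfdp1 was 19.7, 20.8 and 20.7 times that of Tfdp2 in shRela-1, 13.0, 13.6 and 13.5 times in shRela-2, and 15.8, 14.8 and 15.4 times in shScr.

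**Figure D3:**
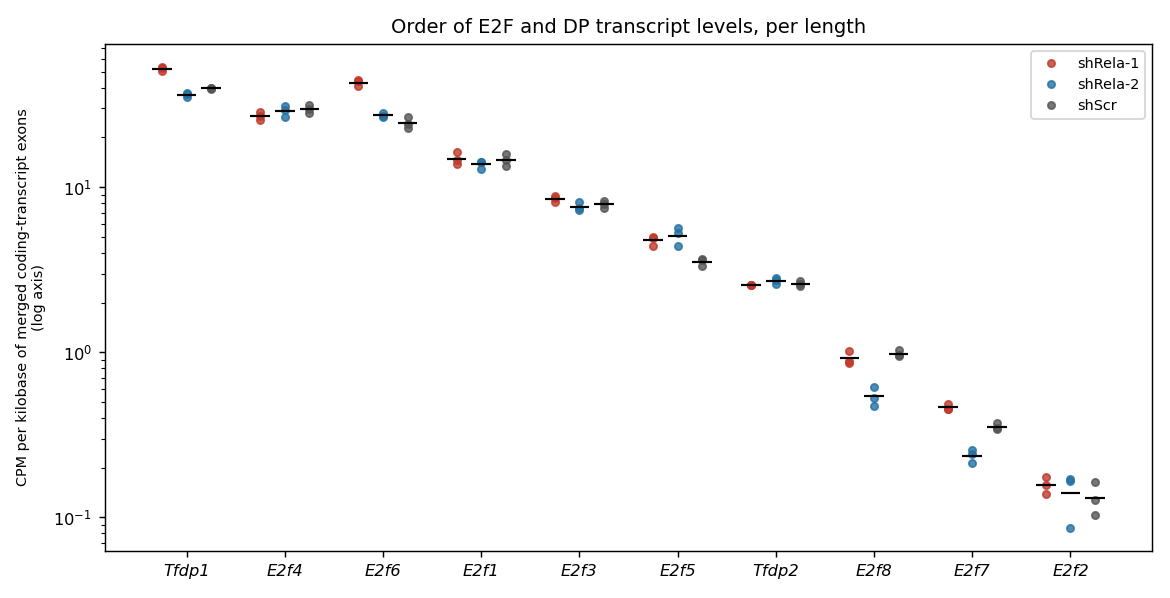
Level of each member in CPM per kilobase of merged exons on a log axis, with members in the order of their shScr level and each point a sample. E2f6 lies above E2f4 in the shRela-1 samples, at 43.0 against 27.1 CPM per kilobase on average.

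Of the 3 genes of pocket proteins, which the E2F dimers bind, 1 fell with shRela-1, where 12.4% of all genes tested fell, and 1 rose with shRela-2, where 15.4% rose. Rbl2, the gene of p130, had 39.2 ± 0.840 CPM in shRela-1, 49.4 ± 2.18 CPM in shRela-2 and 40.2 ± 2.55 CPM in shScr (SD, n = 3 each), and it rose with shRela-2 (0.30 ± 0.052 log2; adjusted p = 0.00158). Rb1 fell with shRela-1 (-0.26 ± 0.073 log2; adjusted p = 0.0243), a call lost without replicate 2 (0.0884) or 3 (0.0700) of shScr or replicate 1 (0.0830) or 3 (0.0760) of shRela-1. Rbl1, the gene of p107 and a known E2F target, was at 0.18 and 0.10 log2 against shScr with shRela-1 and shRela-2 and was not called (adjusted p = 0.184 and 0.437).

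Among 18 genes of the input to the pocket proteins and E2F, which are cyclin-dependent kinases, cyclins and kinase inhibitors together with the ubiquitin ligase subunits Skp2 and Ccnf, 7 rose and 4 fell with shRela-1, and 3 rose and 5 fell with shRela-2; with the replicate number as a block 8 fell with shRela-2, and only 1 fell with shRela-1 without replicate 2 or 3 of shScr or replicate 3 of shRela-1 (and 2 without replicate 1 of shRela-1 or replicate 2 or 3 of shRela-2). Their median log2 fold changes were 0.16 and -0.08, where those of all genes tested were 0.0026 and -0.0020. Of all genes tested, 12.3% rose and 12.4% fell with shRela-1, and 15.4% rose and 15.4% fell with shRela-2. With the block, 3416 of 15369 genes tested fell with shRela-2. The D cyclins start this input: Ccnd3 rose with shRela-1 (0.23 ± 0.043 log2; adjusted p = 0.00341) and fell with shRela-2 (-0.37 ± 0.043 log2; adjusted p = 1.20e-04). Ccnd2 fell with shRela-2 to 602 ± 75.1 CPM, against 1396 ± 114 CPM in shScr (-1.21 ± 0.095 log2; adjusted p = 1.10e-05). Its smaller fall with shRela-1 (-0.33 ± 0.094 log2; adjusted p = 0.0284) was lost without replicate 2 or 3 of shScr or replicate 1 or 3 of shRela-1, with adjusted p up to 0.0924. Ccnd1, also a D cyclin, went the other way with shRela-2. It averaged 646 ± 64.1 CPM in shRela-1, 862 ± 60.1 CPM in shRela-2 and 564 ± 62.1 CPM in shScr, and the shRela-2 and shScr samples did not overlap. Ccna2, the cyclin of S phase and an E2F target itself, averaged 11.2 ± 1.13 CPM in shRela-1, 5.55 ± 0.124 CPM in shRela-2 and 8.11 ± 0.196 CPM in shScr. Ccnf, whose product in human cells marks E2F proteins for destruction, rose with shRela-1 (0.51 ± 0.11 log2; adjusted p = 0.00591) and fell with shRela-2 (-0.61 ± 0.11 log2; adjusted p = 0.00197).

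Genes that E2F is known to drive at the start of S phase moved apart with the hairpins. Of 35 listed G1/S targets, 17 rose and none fell with shRela-1 against shScr, and 1 rose and 19 fell with shRela-2 against shScr, with medians of 0.29 and -0.36 log2. By an unadjusted p under 0.05, 23 were higher and 1 was lower with shRela-1. DESeq2 and limma voom also called 0 where edgeR did, in this list and in those of the G2/M targets and the PRC1.6 partners. In shRela-1 against shRela-2, 32 were higher and none lower (33 and 0 at an unadjusted p under 0.05), with a median of 0.65 log2. Over all genes tested, 12.3% rose and 12.4% fell with shRela-1, and 15.4% rose and 15.4% fell with shRela-2. Between the hairpins 19.9% were higher and 20.0% lower in shRela-1. At an unadjusted p under 0.05, 2782 of 15369 genes tested were higher and 2736 lower with shRela-1. Between the hairpins 3650 were higher and 3693 lower in shRela-1 at that threshold. The list has been chosen with results of these samples known, so its direction is not independent evidence. Only 3 of its genes rose and 3 fell in the mean comparison, where 10.7% of all genes rose and 12.2% fell.

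Slbp, which encodes the binding protein of histone mRNA, had 28.8, 27.8 and 27.9 CPM with shRela-1, 9.86, 8.87 and 10.8 CPM with shRela-2, and 22.9, 22.2 and 21.9 CPM with shScr. It rose with shRela-1 (0.33 ± 0.068 log2; adjusted p = 0.00513) and fell with shRela-2 (-1.18 ± 0.071 log2; adjusted p = 2.56e-06), and no group overlapped another. Mcm3, a subunit of the replicative helicase, rose by 0.41 ± 0.062 log2 with shRela-1 (adjusted p = 7.88e-04) and fell by 0.67 with shRela-2 (SE 0.063; adjusted p = 3.40e-05). The helicase subunit Mcm5 was at 0.22 ± 0.093 log2 with shRela-1 (adjusted p = 0.117, and 0.0163 with the replicate number as a block) and fell with shRela-2 (-0.66 ± 0.095 log2; adjusted p = 5.17e-04). Pola1, the catalytic subunit of DNA polymerase alpha, rose with shRela-1 (0.47 ± 0.094 log2; adjusted p = 0.00471) and fell with shRela-2 (-0.41 ± 0.096 log2; adjusted p = 0.00860).

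Targets of the G2/M program, which the DREAM complex of E2F4, p130 or p107 and MuvB represses and FOXM1 with B-MYB activates, also moved apart with the hairpins. Of 28 such genes 14 rose and none fell with shRela-1 against shScr (25 rose with the replicate number as a block), and none rose and 19 fell with shRela-2 against shScr. By an unadjusted p under 0.05 these counts were 22 and 0, then 0 and 24. In shRela-1 against shRela-2, 27 were higher and none lower (28 and 0 at an unadjusted p under 0.05), with a median of 1.02 log2; Cdk1 was the exception. All genes tested gave 12.3% risen and 12.4% fallen with shRela-1, and 15.4% risen and 15.4% fallen with shRela-2. Between the hairpins 19.9% of them were higher and 20.0% lower in shRela-1. At an unadjusted p under 0.05, 2782 of 15369 genes tested were higher and 2736 lower with shRela-1, and 3119 higher and 3071 lower with shRela-2. Between the hairpins 3650 were higher and 3693 lower in shRela-1 at that threshold. With the replicate number as a block, 3130 of all genes tested rose with shRela-1. The choice of the list with these results known applies here too. Nuf2, a kinetochore protein gene, averaged 7.09 ± 0.646 CPM in shRela-1, 1.62 ± 0.235 CPM in shRela-2 and 4.25 ± 0.295 CPM in shScr. It rose with shRela-1 (0.74 ± 0.12 log2; adjusted p = 0.00142) and fell with shRela-2 (-1.39 ± 0.13 log2; adjusted p = 3.52e-05).

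The spindle motor Kif11 rose by 0.65 ± 0.13 log2 with shRela-1 (adjusted p = 0.00384) and fell with shRela-2 (-1.24 ± 0.13 log2; adjusted p = 7.59e-05). Top2a, a topoisomerase of mitotic chromosomes, averaged 36.8 ± 2.66 CPM in shRela-1, 17.9 ± 1.51 CPM in shRela-2 and 25.7 ± 0.927 CPM in shScr. The spindle assembly gene Tpx2 fell with shRela-2 (-1.05 ± 0.11 log2; adjusted p = 6.76e-05) and was at 0.22 ± 0.11 log2 with shRela-1 (adjusted p = 0.171, and 0.0107 with the replicate number as a block). Foxm1 was at 0.26 ± 0.10 log2 with shRela-1 (adjusted p = 0.0953, and 0.00684 with the block) and fell with shRela-2 (-0.56 ± 0.10 log2; adjusted p = 0.00230).

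Over the 7 genes of the MuvB core with Mybl2 and Foxm1, 2 rose and 1 fell with shRela-1, and none rose and 2 fell with shRela-2 in edgeR's test (1 was higher at an unadjusted p under 0.05, and 1 rose in DESeq2 and with the replicate number as a block). Lin37, the member that fell with shRela-1 (-0.28 ± 0.079 log2; adjusted p = 0.0253), was not called without any 1 of the 3 shScr samples or shRela-1 replicates 1 and 2 (adjusted p from 0.0533 to 0.0917). The 2 that rose with shRela-1 became 1 without shScr replicate 1 or 3 or any 1 shRela-1 sample. As background for these counts, shRela-1 raised 12.3% and lowered 12.4% of all genes tested, and shRela-2 raised 15.4% and lowered 15.4%. Before adjustment, 3119 of 15369 genes had a higher level with shRela-2 by a p below 0.05. Risen genes for shRela-2 numbered 2494 in DESeq2 and 3414 in the fit with the block. Lin54, the subunit that binds the CHR element, rose with shRela-1 (0.31 ± 0.062 log2; adjusted p = 0.00458) and was at -0.07 ± 0.063 log2 with shRela-2 (adjusted p = 0.454). Mybl2, the gene of B-MYB, averaged 3.86 ± 0.220 CPM in shRela-1, 2.41 ± 0.213 CPM in shRela-2 and 3.43 ± 0.724 CPM in shScr. Its fall with shRela-2 (adjusted p = 0.0308) was lost without shScr replicate 2 (0.0785) or 3 (0.129) or shRela-2 replicate 2 (0.0831) or 3 (0.0972).

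**Figure D4:**
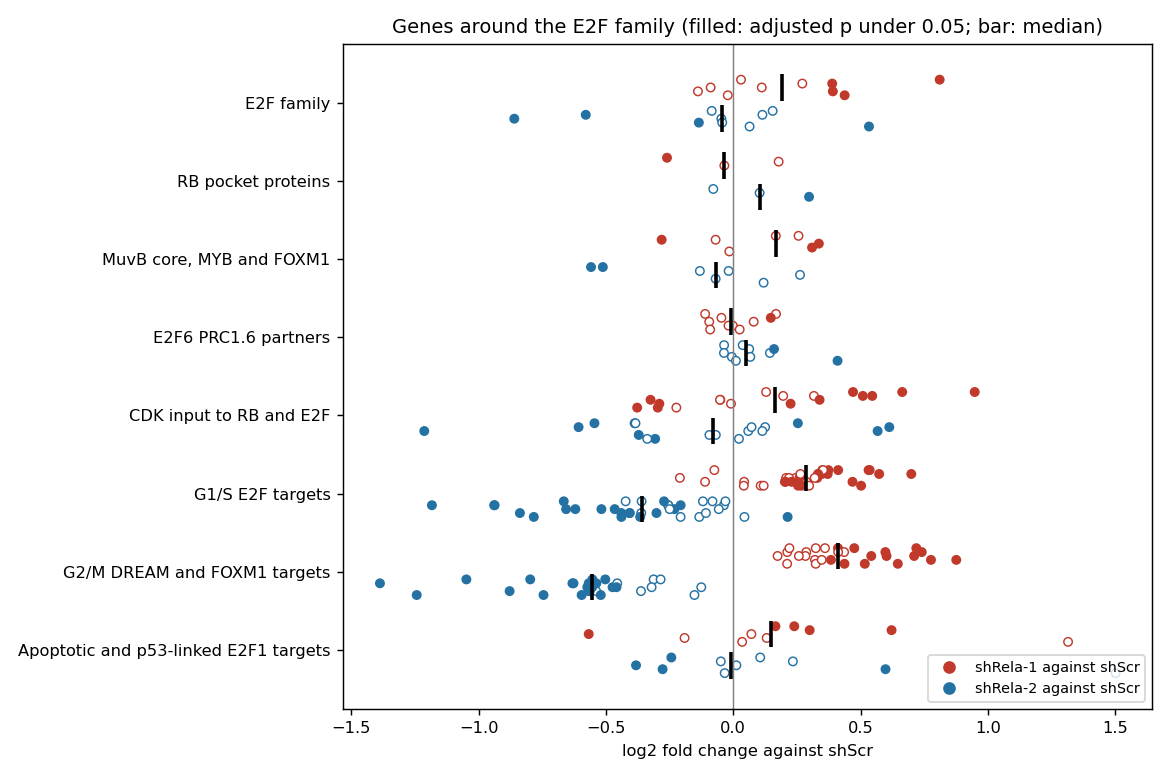
Log2 fold change against shScr of each gene in the lists around the E2F family, for shRela-1 and shRela-2, with filled points for an adjusted p under 0.05 and a bar at each list's median. The G1/S targets have medians of 0.29 and -0.36 and the G2/M targets of 0.41 and -0.55 for shRela-1 and shRela-2.

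Of 10 genes of E2F6 partners in PRC1.6, 1 rose and none fell with shRela-1, where 12.3% of all genes rose, and 2 rose and none fell with shRela-2, where 15.4% of all genes rose, with medians of -0.01 and 0.05 log2. At an unadjusted p under 0.05 none was lower with shRela-2 and 1 was lower with shRela-1, where 3071 and 2736 of 15369 genes tested were lower. The count with shRela-1 was 0 without any 1 of shScr replicates 1 and 2, shRela-1 replicates 1 and 3 and shRela-2 replicates 1, 2 and 3, and 2 with the replicate number as a block, which also gave 1 that fell. Over all 15369 genes tested the block gave 3130 that rose and 2904 that fell with shRela-1. That with shRela-2 was 1 without any 1 of shScr replicates 1 and 2 and shRela-2 replicates 2 and 3. Pcgf6, the subunit that defines the complex, was at 0.02 ± 0.098 log2 with shRela-1 (adjusted p = 0.893) and rose with shRela-2 (0.41 ± 0.098 log2; adjusted p = 0.00922). Of 7 germline genes that E2F6 is known to keep silent in mouse, only Stag3 passed the filter and 2, Tuba3b and Mael, were at 0 in all libraries. Their summed level was 2.48 to 3.99 CPM in shRela-1, 2.23 to 3.07 CPM in shRela-2 and 2.15 to 2.64 CPM in shScr. Stag3, a meiotic cohesin subunit, was at 0.45 ± 0.22 log2 with shRela-1 (adjusted p = 0.178).

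Among 10 apoptotic and p53-linked genes that E2F1 can activate, 4 rose and 1 fell with shRela-1 (2 rose without shRela-1 replicate 3), and 1 rose and 3 fell with shRela-2. The shares of all genes tested were 12.3% risen and 12.4% fallen with shRela-1, and 15.4% risen and 15.4% fallen with shRela-2. With the replicate number as a block 2 fell with shRela-1 and 2 rose with shRela-2, where 2904 of 15369 genes tested fell and 3414 rose. Trp53inp1, a p53 cofactor gene, averaged 99.98 ± 8.10 CPM in shRela-1, 173 ± 15.5 CPM in shRela-2 and 114 ± 8.41 CPM in shScr, and rose with shRela-2 (0.60 ± 0.080 log2; adjusted p = 3.06e-04). With shRela-1 it was at -0.19 ± 0.080 log2 (adjusted p = 0.110, and 8.11e-04 with the replicate number as a block). Bcl2l11, which encodes the death-promoting protein BIM, fell with shRela-1 (-0.57 ± 0.066 log2; adjusted p = 1.48e-04) and was at 0.01 ± 0.065 log2 with shRela-2 (adjusted p = 0.916). Apaf1, the apoptosome scaffold, fell with shRela-2 (-0.24 ± 0.050 log2; adjusted p = 0.00391), and its rise with shRela-1 (adjusted p = 0.0332) was lost without shScr replicate 1 (0.107) or 3 (0.0714), shRela-1 replicate 2 (0.0992) or 3 (0.104).

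Markers of other cell types moved with the hairpins in some lists. The 5 skeletal muscle markers summed to 450 to 821 CPM in shRela-1, 227 to 376 CPM in shRela-2 and 291 to 538 CPM in shScr, nearly all of it from Acta1 and Des, while the defining genes Myod1 and Myog were at 0.0569 and 0.0721 CPM or less on average in every group. The 5 neural markers summed to 59.9 to 64.2 CPM in shRela-1, 125 to 135 CPM in shRela-2 and 89.5 to 90.3 CPM in shScr, nearly all from Tubb3, with Sox10 at 0.324 CPM in shRela-1, 0.339 CPM in shRela-2 and 0.385 CPM in shScr. The 6 epithelial markers summed to 11.9 to 20.2 CPM in shRela-1, 7.05 to 9.49 CPM in shRela-2 and 7.52 to 11.1 CPM in shScr, and the 6 endothelial markers to 4.19 to 5.61 CPM in shRela-1, 4.03 to 5.79 CPM in shRela-2 and 4.47 to 5.46 CPM in shScr. Of the macrophage markers, summed at 397 to 523 CPM in shRela-1, 346 to 526 CPM in shRela-2 and 403 to 586 CPM in shScr, 1 of 10, Itgam, was called, falling with shRela-2 (adjusted p = 0.0171, but 0.0630 without shScr replicate 2, 0.0605 without shRela-2 replicate 1 and 0.0620 without shRela-2 replicate 3). By their medians, the muscle, epithelial, fibroblast and macrophage sums lay above shScr with shRela-1 and below it with shRela-2. E2f7, Tfdp1 and the G1/S and G2/M lists had these directions too, and the neural sum lay the other way. The endothelial median, 5.01 CPM with shScr, was higher with both hairpins, at 5.51 (shRela-1) and 5.15 (shRela-2). Muscle, macrophage and endothelial sums of either hairpin overlapped those of shScr, and epithelial and fibroblast sums did so only with shRela-2. Lyz2, the highest macrophage marker, was on average below shScr with both hairpins. The fibroblast medians were 60897 CPM in shRela-1, 52745 CPM in shRela-2 and 57663 CPM in shScr, and the macrophage medians were 448 CPM, 371 CPM and 429 CPM in shRela-1, shRela-2 and shScr. Of the 10 fibroblast markers, 3 rose and 1 fell with shRela-1 against shScr, 0 rose and 1 fell with shRela-2 against shScr in edgeR's test (0 and 1 at an unadjusted p under 0.05), and 5 were higher and 1 lower in shRela-1 than in shRela-2. The shares over all genes tested were 12.3% and 12.4%, 15.4% and 15.4%, and 19.9% and 20.0% for these comparisons. At an unadjusted p under 0.05, 3119 of 15369 genes tested were higher and 3071 lower with shRela-2. With the replicate number as a block, 3130 genes tested rose with shRela-1, 3416 fell with shRela-2 and 4006 were higher in shRela-1 than in shRela-2. Of the fibroblast markers, 8 rose with shRela-1, 3 fell with shRela-2 and 9 were higher in shRela-1 than in shRela-2 in that fit. The 3 that rose with shRela-1 became 1 without replicate 2 of shScr or replicate 3 of shRela-1, the 5 higher in shRela-1 than in shRela-2 became 3 without that shRela-1 sample, and the 1 that fell with shRela-1 became 0 without replicate 2 or 3 of shScr, replicate 1 or 2 of shRela-1 or replicate 2 of shRela-2. The 1 lower in shRela-1 than in shRela-2 became 0 without replicate 1 of shRela-1 or replicate 2 or 3 of shRela-2. The part of these markers in the results for the E2F family was not tested.

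Genes that followed a member most closely over the 9 samples were read from 11714 genes (mean log2 CPM 1 or more), by Pearson's r of log2 CPM, as a description of samples that fall into 3 groups and share libraries. Those closest to E2f6 were Cox7a2l (0.985), Lcorl (0.983) and E430025E21Rik (0.982). The closest to E2f7 were Wdr7 (0.990), Ap3m1 (0.988) and Stau2 (0.988), and those to E2f8 were Slc16a1 (0.990), Prmt10 (0.990) and Ccl7 (0.988). Tfdp1 was followed by Snap23 (0.993), Dclre1a (0.991) and Tmtc2 (0.987), and E2f3, the member with the smallest differences of these 5, by Zfp661 (0.921), Hist2h2be (0.918) and Pdxp (0.915). None of the 15 is in a list of E2F targets used here. Those lists hold only 35 (G1/S), 28 (G2/M) and 10 (apoptotic) genes beside the 11714 searched, so nothing follows from this absence.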

How the data were processed

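Per the labels' protocols, RNA from 9 samples was column-purified and libraries came from the TruSeq RNA v2 kit, which does not mark strand. The authors deposited raw, unnormalized counts for each gene symbol, 1 column per sample. Tools listed in the submitters' processing notes are featureCounts 1.4.6, Subread, Bowtie2 2.2.6 and TopHat2 2.0.14, on build mm10, without settings; how ambiguous reads were handled is not stated.

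Samples were grouped by title. Titles of shScr samples carry a dataset tag that the others lack, so a library batch that goes with it and the hairpin cannot be told apart. Nothing says that replicates came from separate cultures, so p-values measure only the spread among these samples, possibly a technical one. Intervals cover the spread in these counts only.

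Genes were kept by filterByExpr (15369 of 24062; 3924 had no count), libraries were scaled by TMM (factors 0.975 to 1.02), and 1 edgeR 4.0.16 model in R 4.3.3 was fitted to all 9 samples (glmQLFit, glmQLFTest, two-sided). Rose and fell mean a Benjamini-Hochberg adjusted p under 0.05 over all genes tested. CPM were computed from the deposited counts, and levels per kilobase used GENCODE M21 exons. The script was tested on simulated data.

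The members and all lists were chosen with earlier results of these data known. Genes to be named were the members, Rela, from each list the 4 with the smallest p in shRela-1 against shRela-2, and for each member called in that comparison the 3 most alike. Some of these are left out of the text, and Ptprc, Csf1r, Lyz2, Sox10, Myod1, Myog, Ccnd1, Cdk1, Tuba3b and Mael were added after their values were seen. Replicate numbers come from the titles. Deviations from group means correlated in all 9 same-numbered pairs (0.189 to 0.415) and from -0.306 to 0.0459 in the 18 other pairs, so the numbers were taken to pair samples. The main model has no term for this pairing, so calls and missing calls given without the replicate block ignore it. Only the fits with the replicate number as a block take it into account.

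Alternatives were DESeq2 size factors, upper quartile scaling, library totals alone, no filter, DESeq2 1.42.0, limma 3.58.1 (voom), the replicate block, a fit to only the groups compared, and each replicate left out in turn.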

Additional observations from a re-analysis of the deposited data

Results flagged for a closer look

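The effects of the hairpins against shScr differed from each other in 5 members, by the test of shRela-1 against shRela-2, which is the difference between these effects. The effect of shRela-1 exceeded that of shRela-2 by 0.97 log2 for E2f7, 0.77 for E2f8, 0.66 for E2f6, 0.53 for Tfdp1 and 0.16 for E2f3. Rela itself was not called different between the hairpins (13.6 CPM with shRela-1, 13.9 CPM with shRela-2; log2 -0.03, adjusted p = 0.726 in edgeR's test).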

How the results depend on the processing

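Over 40 changes of members and 670 alternatives, 645 stayed on their side of the threshold, 17 were no longer called and 8 became called. Of changes called in either fit, 0 reversed direction. Changes called in neither fit could change sign and still count among the 645. E2f1 with shRela-1 against shScr, at 0.03 log2, ranged from -0.033 to 0.094 with 1 replicate left out. With library totals alone, E2f6 rose with shRela-2 against shScr (0.17), which made 2 members that rose, and E2f3 was no longer called between the hairpins (0.12). DESeq2 also called E2f6 there (0.16; 2 members). With the replicate block, all genes called grew to 6034 for shRela-1 against shScr and to 5763, against 3507, for the mean comparison. In the members it added a fall of E2f4 with shRela-1 (-0.14; 1 that fell), in the mean (-0.092; 2 that fell) and against shRela-2 (-0.094; 1 that fell), a rise of E2f6 with shRela-2 (0.16; 2 that rose) and a higher E2f1 in shRela-1 than in shRela-2 (0.11), and it changed no other member's call. The fit to only the groups compared gives no value for the mean. The cause of each change was not tested.

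With each replicate left out in turn, the members that rose numbered 2 to 4 with shRela-1 against shScr and 1 to 2 with shRela-2 against shScr, and all genes called in the mean comparison 2329 (without shScr replicate 3) to 3335. On the log2 scale and with calls changing, E2f7 ranged from 0.36 to 0.43 and E2f5 from 0.39 to 0.49 with shRela-1, E2f6 from 0.11 to 0.22 and Tfdp1 from -0.15 to -0.12 with shRela-2, Tfdp1 in the mean from 0.12 to 0.14, and E2f3 in shRela-1 against shRela-2 from 0.13 to 0.21.

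E2f2 had 23 to 51 counts per library.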
